A study of Homo sapiens and Mus musculus with 13 samples.

Results

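Cytosolic ribosomal protein genes were followed in a mouse haematopoietic progenitor line with and without NPM1c, the leukaemic form of nucleophosmin that accumulates in the cytoplasm. The members were the genes named Rps or Rpl with a number, Rplp0 to Rplp2 and Rpsa, pseudogene names left out, whose normalized read count averaged at least 10 over the 5 mouse libraries. The name pattern found 80 rows of 37991, and 77 passed the minimum, 32 of the small and 45 of the large subunit. No member lay near that minimum: Rpl32 averaged 798.7, the lowest member, and Rpl3l, a muscle paralog of Rpl3, was the highest row outside it at 8.98. The other 2 rows below it were the paralogs Rpl39l, at 1.23 in clone 12 and 0 elsewhere, and Rpl10l, at 0 in all 5 libraries. The knock-in group held 3 single-cell clones, labelled 12, 18 and 4, in which CRISPR/Cas9 had placed NPM1c, called NPM1ca-GFP in the design text, into the line. It was set against the unedited parental line in 2 libraries, here parental 1 and parental 2. All 5 came from cells immortalized by HOXB8 and kept in medium with stem cell factor and beta-estradiol. Each clone descends from a single cell, so differences between the lines that cloning brings cannot be told apart from those of the knock-in, and the parental libraries are not clones. Clones are called by the number in their sample title, which differs from the number in the head of their data table. Human libraries of the series were not used.

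A ribosome joins a small subunit, which reads the mRNA, with a large subunit, which forms peptide bonds, and each ribosomal protein is present once in it except the stalk proteins P1 and P2. Cells therefore make these proteins in matched amounts, and their mRNAs begin with a terminal oligopyrimidine (TOP) tract through which mTOR and LARP1 control translation. Nucleophosmin is an abundant nucleolar protein that binds several ribosomal proteins and takes part in ribosome assembly and export. When assembly fails, RPL5 and RPL11 with 5S rRNA bind MDM2 and p53 accumulates. Ribosomal protein genes have many processed pseudogenes with near-identical sequence, so reads can be shared between a gene and its copies, and every value below is uncertain to that extent.

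The deposited values corresponded to 7358340 to 12235174 reads in the clones, against 9728260 and 99557475 in parental 1 and 2, so that parental 2 was by far the deepest library. Npm1, the targeted gene, was at 15141, 14144 and 14305 in the clones, against 25695 and 25714 in the parental libraries (log2 fold change -0.82, SE 0.0673, adjusted p = 0.000533, limma), and the table does not separate mutant from normal transcripts. Hoxb8, the immortalizing gene, was at 5745, 6629 and 4101 in the clones, against 6732 and 6080.2 in the parental libraries (log2 fold change -0.25, SE 0.199, adjusted p = 0.438, limma). Of the 10 progenitor markers, 9 were tested, with 2 higher and 3 lower in the clones, against 7.51% and 8.49% of all genes tested. The summed level of the list was 76459 to 81728 in the clones and 96506 and 106705 in the parental libraries. Without Mpo, which did not pass (adjusted p = 0.0629, limma), the sum was 61719 to 72512 in the clones and 63832 and 57896 in the parental libraries, so that the groups overlapped. Mast cell and basophil markers summed to 10007 to 12604 in the clones and 2933 and 5357 in the parental libraries, with 5 of 7 tested members higher, against 7.51% of all genes tested. Erythroid markers summed to 58.6 to 104.6 in the clones and 3.11 and 8.70 in the parental libraries. Both tested members were higher: Hbb-b1 was at 61.6, 25.4 and 51.3 in the clones, against 0 and 0.763 in the parental libraries (adjusted p = 0.00221, limma), and Hbb-b2 at 35.7, 19.0 and 24.6 in the clones, against 0 and 0.458 in the parental libraries (adjusted p = 0.00472, limma). Hba-a1 and Hba-a2 were at 0 in all 5. Lymphoid markers summed to 11.1 to 16.4 in the clones and 97.9 and 108.7 in the parental libraries, and Ms4a1, Cd3e and Ncr1 were at 0. Most of the parental sum was Cd79b, at 80.8 and 90.2 there and at 0 to 1.59 in the clones. The stromal and endothelial sum of 7517 to 9185 in the clones and 3342 and 3543 in the parental libraries was almost all Pecam1, while Col3a1, Dcn and Cdh5 were at 0. The part of these markers in the results below was not tested.

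The comparison of clones with parental libraries asks whether progenitors that carry NPM1c hold different amounts of ribosomal protein mRNA. Most members were slightly higher in the clones, and the difference of a typical member was small. The log2 fold change (on the log2(value + 1) scale) was positive in 73 of 77 members, against 51.1% of the 13132 genes tested, and the median member stood at 0.22, a 1.16-fold difference, against 0.01 over all genes tested. With adjusted p under 0.05 (limma, adjusted over all genes tested), 12 members were higher, or 15.6%, while 7.51% of all genes were called higher. These were Rps9, Rps12, Rps14, Rps19, Rps20, Rps21, Rps28 and Rps29 of the small subunit and Rpl19, Rpl27, Rpl35 and Rpl37a of the large. None was called lower, against 8.49% of all genes, and 1 had an unadjusted p under 0.05 in that direction (limma), against 16% of all genes. In the higher direction 38 members had one, against 15.1% of all genes, and in either direction 31.1% of all genes did. By edgeR and by DESeq2 the counts were 14 and 21 higher and 0 lower, and all 12 were in each. Of all genes, 7.84% and 9.88% were called higher by these, and 1176 and 1383 of 13132 were called lower. In 49 members every clone was above both parental libraries, against 24.5% of all genes, and in 1 member, Rps3a, every clone was below both, against 25.8% of all genes. Every clone was above parental 1 in 60 members, against 34.1% of all genes, and above parental 2 in 54, against 35.4%. In bulk samples, less RNA per cell and fewer cells of a type cannot be told apart.

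The call of each single gene was fragile. Each of the 12 lost its call on leaving out 1 of the 5 libraries, in 2 to 4 of these 5 fits. Of the 77 members, 1 was higher without clone 12 (Rps14), 5 without clone 18 and 18 without clone 4. Of all genes, 3.57%, 5.67% and 7.52% were called higher in these fits. Without clone 12 the share of members called was thus below that of all genes. The median log2 fold change of the members was 0.20 without parental 2 and 0.22 without parental 1. Over all 5 fits it lay between 0.19 and 0.24, and so varied less than the counts. A fit with a single parental library assumes that it varies as the clones do.

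**Figure D1:**
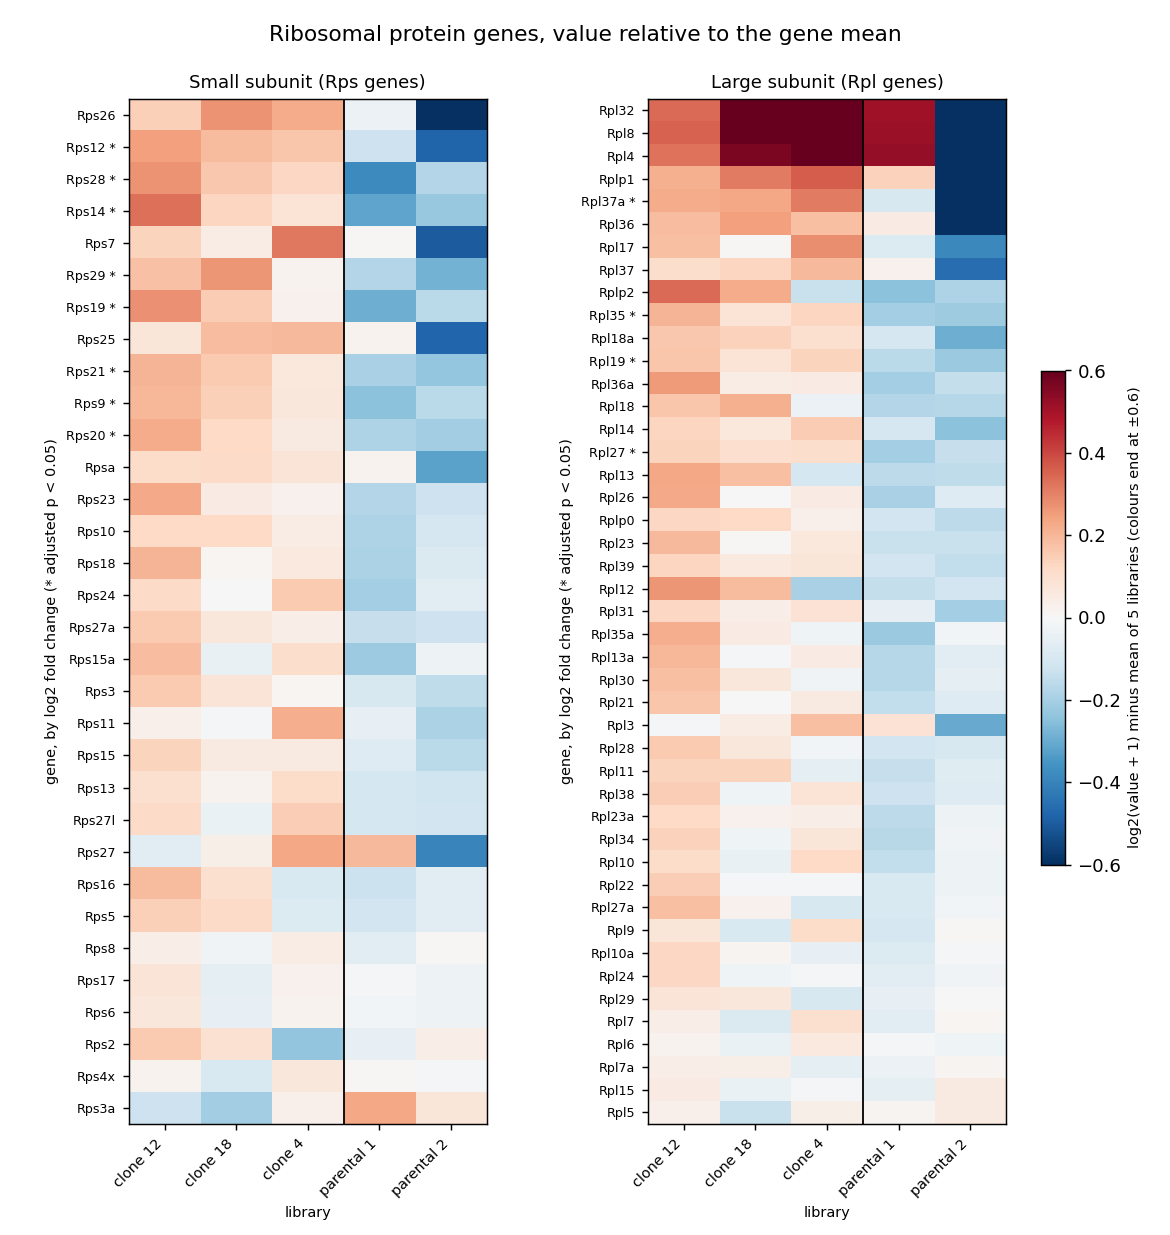
Each row is a ribosomal protein gene, ordered by log2 fold change from the highest at the top, and each column a library, with knock-in clones left of the parental libraries. Colour gives log2(value + 1) minus the gene's mean over the 5 libraries, and an asterisk marks adjusted p under 0.05. Most rows are red in the 3 clones and blue in the 2 parental libraries, and Rpl32, Rpl8 and Rpl4 at the top are low in parental 2 alone.

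The small subunit held 8 of the 12 higher members, out of 32, or 25%, while 7.51% of all genes were called higher. Its median log2 fold change was 0.22. Rps28, a small protein of the head of the 40S subunit, had the smallest adjusted p. Its normalized read count was 19698, 18267 and 17772 in clones 12, 18 and 4, against 12543 and 14436 in parental 1 and 2 (log2 fold change 0.46, SE 0.0870, adjusted p = 0.0124, limma, 1.38-fold). The groups did not overlap, and the lowest clone exceeded the higher parental library. Rps14, whose human counterpart is the gene of the 5q- syndrome, was at 31615, 27446 and 26571 in clones 12, 18 and 4, against 20189 and 21439 in parental 1 and 2 (log2 fold change 0.45, SE 0.0889, adjusted p = 0.0144, limma). Clone 12 stood above the other clones, and the parental libraries were close to each other. Rps9, a decoding-site protein reported to bind nucleophosmin, was at 52002, 50006 and 47377 in clones 12, 18 and 4, against 38165 and 40433 in parental 1 and 2 (log2 fold change 0.34, SE 0.0669, adjusted p = 0.0143, limma). All clones lay above both parental libraries, and the gap between the groups was wider than the range within either. Rps19, the gene most often mutated in Diamond-Blackfan anaemia, an inherited failure of red cell production, was at 35957, 33007 and 30225 in clones 12, 18 and 4, against 24211 and 26570.3 in parental 1 and 2 (log2 fold change 0.38, SE 0.0887, adjusted p = 0.0263, limma). Its clones spanned a wider range than the gap between the groups.

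Rps12, which in Drosophila is required for cell competition, was at 2425, 2335 and 2292 in clones 12, 18 and 4, against 1875 and 1466 in parental 1 and 2, the largest difference of the 8 (log2 fold change 0.50, SE 0.121, adjusted p = 0.0294, limma). Its clones were nearly level and the parental libraries were apart. Against parental 1 alone its log2 fold change was 0.33 (adjusted p = 0.150, limma). Rps21 was at 5284, 5107 and 4784 in the clones, against 4002 and 3905 in the parental libraries (log2 fold change 0.35, SE 0.0834, adjusted p = 0.0269, limma). Rps20 was at 8764, 8143 and 7796 in the clones, against 6588 and 6484 in the parental libraries (log2 fold change 0.33, SE 0.0811, adjusted p = 0.0309, limma). Rps29, another Diamond-Blackfan gene, was at 2340.2, 2492 and 2101 in the clones, against 1835 and 1703 in the parental libraries and passed narrowly (log2 fold change 0.38, SE 0.107, adjusted p = 0.0488, limma). In these 3 genes the groups did not overlap. Of the 19 mouse counterparts of Diamond-Blackfan genes among the members, Rps19, Rps28, Rps29, Rpl27 and Rpl35 were higher and 14 did not pass. The share called higher was 26.3%, against 15.6% of all members and 7.51% of all genes. Their median log2 fold change was 0.23, against 0.22 over all members. Whether the 19 differ from the other members was not tested.

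The large subunit held 4 higher members out of 45, or 8.89%, while 7.51% of all genes were called higher. Its median log2 fold change was 0.21. The difference between the subunits was not tested. Rpl37a had the largest log2 fold change of all called members, at 1209, 1217 and 1286 in clones 12, 18 and 4, against 969.5 and 649 in parental 1 and 2 (log2 fold change 0.64, SE 0.170, adjusted p = 0.0418, limma). Its clones were close to each other, and parental 2 was well below parental 1. Against parental 1 alone its log2 fold change was 0.35 (adjusted p = 0.160, limma). Rpl35, which sits at the exit of the peptide tunnel, was at 8541, 7843 and 8103 in clones 12, 18 and 4, against 6426 and 6401 in parental 1 and 2 (log2 fold change 0.35, SE 0.0762, adjusted p = 0.0211, limma). The parental libraries were almost equal. Rpl19, which forms a bridge between the subunits, was at 10391, 9791 and 10130.2 in the clones, against 8267 and 7926 in the parental libraries (log2 fold change 0.32, SE 0.0727, adjusted p = 0.0237, limma), and Rpl27 was at 8816, 8606 and 8622 in the clones, against 6967 and 7295 in the parental libraries (log2 fold change 0.28, SE 0.0720, adjusted p = 0.0352, limma). In all 4 genes every clone was above both parental libraries.

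**Figure D2:**
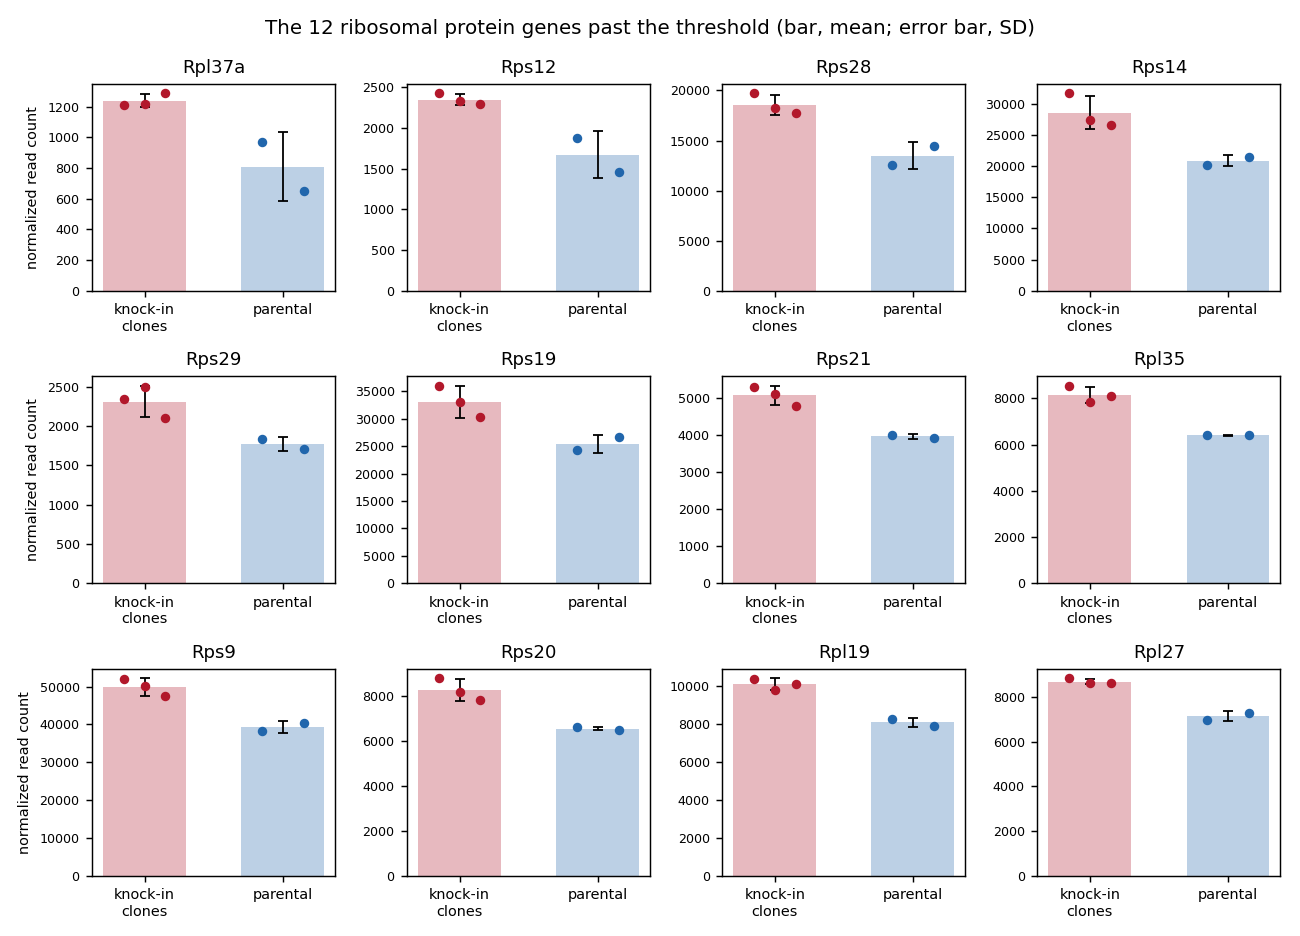
Normalized read counts of the 12 genes with adjusted p under 0.05, with 3 knock-in clones (red) left of 2 parental libraries (blue). Points are libraries, bars are means, error bars are SD, and every axis starts at 0. In each panel the lowest clone is above the highest parental library, with log2 fold changes of 0.28 to 0.64.

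The stalk of the large subunit recruits translation factors and is built from Rplp0, Rplp1 and Rplp2. None of the 3 passed by limma in the fit to all 5 libraries, although every clone was above both parental libraries in each. Rplp0 was at 28196, 28123 and 26444 in the clones, against 23924 and 23271 in the parental libraries (log2 fold change 0.22, SE 0.0654, adjusted p = 0.0554, limma), and passed by DESeq2 (adjusted p = 0.0312) and, by limma, with library totals or without clone 4 (adjusted p = 0.0482 and 0.0330). Rplp2 was at 17378, 16008 and 12539 in the clones, against 11595 and 12083 in the parental libraries (log2 fold change 0.36, SE 0.135, adjusted p = 0.124, limma). Clone 4 lay near the parental libraries, and without it Rplp2 passed (adjusted p = 0.00519, limma). Rplp1 was at 1397, 1496 and 1551 in the clones, against 1328 and 592 in the parental libraries (log2 fold change 0.74, SE 0.329, adjusted p = 0.196, limma), with parental 2 far below parental 1, and passed against parental 2 alone (log2 fold change 1.32, adjusted p = 0.00222, limma).

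Rpl5 and Rpl11, the proteins of the 5S ribonucleoprotein, showed no call. Rpl5 was at 19697, 17574 and 19768 in the clones, against 19485 and 20047 in the parental libraries, with a log2 fold change of -0.06 (95% interval -0.24 to 0.12) and overlapping groups (adjusted p = 0.645, limma). Rpl11 was at 31769, 31725 and 27857 in the clones, against 26288 and 27563 in the parental libraries, with a log2 fold change of 0.18 (95% interval -0.01 to 0.36) (adjusted p = 0.181, limma), and its groups did not overlap. Without clone 4 it passed (adjusted p = 0.0431, limma). Of the 3 members reported to bind nucleophosmin, Rps9 was higher, Rpl5 was not called, and Rpl23 was at 10846, 9499.7 and 9905 in the clones, against 8625 and 8642 in the parental libraries (log2 fold change 0.22, SE 0.0821, adjusted p = 0.112, limma). Rpl13a, which also serves in the GAIT complex that represses translation, had a log2 fold change of 0.20 (95% interval 0.02 to 0.38) and Rps3, which also has a DNA repair activity, one of 0.20 (95% interval 0.04 to 0.37), and neither passed (adjusted p = 0.123 and 0.0963, limma).

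The remaining members singled out for a known role did not pass by limma in the fit to all 5 libraries. DESeq2 called Rps27a and Rpl36a (adjusted p = 0.0488 and 0.0405), and limma without parental 1 called Rpsa (adjusted p = 0.0395). Rpsa, the laminin receptor precursor, was at 5573, 5592 and 5461 in the clones, against 5241 and 4134 in the parental libraries (log2 fold change 0.25, SE 0.109, adjusted p = 0.164, limma). Rps27a, made as a fusion with ubiquitin, was at 11678, 10989.7 and 10787 in the clones, against 9529 and 9614 in the parental libraries (log2 fold change 0.22, SE 0.0729, adjusted p = 0.0827, limma). Rps6, the substrate of S6 kinase, was at 21499, 19828 and 20831 in the clones, against 20285 and 20100.4 in the parental libraries, a log2 fold change of 0.04 (95% interval -0.12 to 0.19) (adjusted p = 0.748, limma). Rpl22, which also binds viral and cellular RNA, was at 11854, 10641 and 10600.0 in the clones, against 10032 and 10465 in the parental libraries, a log2 fold change of 0.10 (95% interval -0.08 to 0.29) (adjusted p = 0.413, limma). Rps27l, a paralog of Rps27 and known p53 target, was at 2197, 1972 and 2248 in the clones, against 1888 and 1873 in the parental libraries (log2 fold change 0.18, SE 0.0984, adjusted p = 0.246, limma). Of the X-linked members, Rpl36a, Rpl39 and Rpl10 had log2 fold changes of 0.29 (95% interval 0.08 to 0.50), 0.22 (95% interval 0.03 to 0.41) and 0.15 (95% interval -0.02 to 0.32), and Rps4x one of -0.00 (95% interval -0.17 to 0.17), and none passed (adjusted p = 0.0676, 0.12, 0.219 and 0.997, limma).

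Not every member was higher. Chosen after their values were seen, Rpl15 was at 24899.5, 23420.3 and 23814 in the clones, against 23190.5 and 24937 in the parental libraries, a log2 fold change of -0.00 (95% interval -0.16 to 0.16), and Rps4x was at 16234, 14998 and 16756 in the clones, against 16061 and 15910.2 in the parental libraries. Both changed sign under several settings. Rps3a was the only member with every clone below both parental libraries, at 4442, 4194 and 4952 in the clones, against 5691 and 5099 in the parental libraries (log2 fold change -0.25, SE 0.101, adjusted p = 0.135, limma). This difference did not pass the test.

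The highest clone was 1.12 times the lowest in the median member and 1.24 times over all genes tested. The member with the widest spread, Rpl32, reached 1.43 times. Clone 12 was the highest clone in 47 members, clone 4 in 24 and clone 18 in 6. Clone 4 was the lowest clone in 32 and clone 18 in 35. Some genes of high count set clone 4 apart, chosen here after their values were seen. Rps2 was at 71786, 68659.8 and 54779 in clones 12, 18 and 4, against 62202 and 66246 in parental 1 and 2, so that clone 4 was below both parental libraries and the other clones above them. Rpl12 was at 20651, 19570.0 and 15025 in clones 12, 18 and 4, against 15540.1 and 15861 in parental 1 and 2, with the same order. Rpl13 was at 23383, 22531 and 18474 in clones 12, 18 and 4, against 17836 and 17882 in parental 1 and 2, with clone 4 just above the parental libraries. Without clone 4, Rpl12 and Rpl13 passed (adjusted p = 0.0134 and 0.0105, limma).

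A small set of members was low in parental 2 alone, and this set was also chosen after the values were seen. The parental 2 value was under 0.8 times that of parental 1 in 14 members, or 18.2%, against 16% of all genes, and under 0.2 times in Rpl32, Rpl8 and Rpl4, against 0.206% of all genes. Rpl32 was at 811, 986 and 1159 in clones 12, 18 and 4, against 910.5 and 127 in parental 1 and 2, Rpl8 at 1379, 1658 and 1869 in the clones, against 1546 and 221 in the parental libraries, and Rpl4 at 2257, 2665 and 3194 in the clones, against 2595 and 380.0 in the parental libraries. The clones overlapped parental 1 in all 3, and clone 4 was the highest clone in each. Their log2 fold changes of 1.52, 1.47 and 1.43 were the largest of any member and did not pass (adjusted p = 0.309, 0.314 and 0.321, limma), while against parental 2 alone they did (adjusted p = 0.000942, 0.000866 and 0.000942, limma). Against parental 1 alone they were 0.10, 0.07 and 0.05 (adjusted p = 0.818, 0.857 and 0.916, limma). On recovered reads the log2 fold change of Rpl32 was 0.99 by edgeR and 0.93 by DESeq2. In recovered reads, before division by the size factor, these genes hardly followed the depth of the library. Rpl32 had 659, 622 and 565 reads in clones 12, 18 and 4, against 586 and 830 in parental 1 and 2. Rpl8 had 1120, 1046 and 911 reads in clones 12, 18 and 4, against 995 and 1448 in parental 1 and 2, and Rpl4 1833, 1681 and 1557 reads in clones 12, 18 and 4, against 1670 and 2489 in parental 1 and 2. Parental 2 thus had 1.42 to 1.49 times the reads of parental 1 on these genes but 10.2 times its reads in all.

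Other members lay between these 3 and the rest. Rplp1 had 1135, 944 and 756 reads in clones 12, 18 and 4, against 855 and 3881 in parental 1 and 2, 4.54 times as many in parental 2 as in parental 1. Rpl36, Rps27, Rpl37a, Rps26, Rps7, Rps25, Rpl37, Rpl3, Rps12 and Rpsa followed with 6.23 to 8.03 times as many. Rps28, in contrast, had 16001, 11524 and 8663 reads in clones 12, 18 and 4, against 8073 and 94556 in parental 1 and 2. The 16 members with a mean below 3000 had a median parental ratio of 0.691 and a median log2 fold change of 0.46, against 1.03 and 0.20 for the 61 above it. Set against parental 1 alone the order was the other way. The clone mean was 1.12 times parental 1 in the median of the 16 and 1.16 times in that of the 61. Across the 77 members the parental ratio and the mean normalized count, not corrected for length, correlated with Pearson's r = 0.613 on log scales and Spearman's rho = 0.753, and all points share the same 2 libraries. The mean includes the parental 2 value, which is also the numerator of the ratio, so part of this correlation is built in. Eef2, an elongation factor, and B2m, the light chain of MHC class I, are no members and had parental ratios of 0.183 and 0.166. Of the 12 called members, Rpl37a and Rps12 were among the 14, and the other 10 came from the 63 members with a ratio of 0.810 to 1.15, whose median log2 fold change was 0.20. The cause of the low values was not tested.

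**Figure D3:**
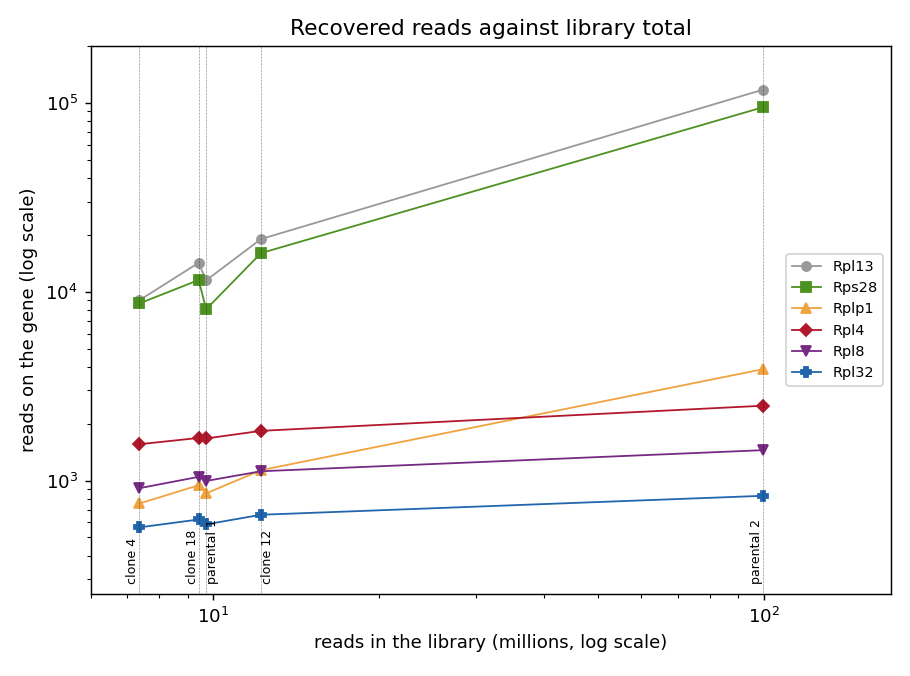
Recovered reads of 6 members (vertical, log scale) against the reads of the library (horizontal, log scale), with dotted lines at the 5 libraries and lines joining the points of a gene. Rpl13 and Rps28 have far more reads in parental 2, the deepest library, than in the others, although both fall from clone 18 to the slightly deeper parental 1. Rplp1 rises less in parental 2. Rpl4, Rpl8 and Rpl32 stay between 1557 and 2489, 911 and 1448, and 565 and 830 reads although library totals span 7358340 to 99557475 reads.

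Summed over the 77 members, the share of all normalized reads was 8.04%, 7.54% and 7.34% in clones 12, 18 and 4, against 6.58% and 6.75% in parental 1 and 2. Every clone was above both parental libraries, by 0.975 percentage points between the means (7.64% ± 0.359 in the clones, SD, n = 3, and 6.66% ± 0.123 in the parental libraries, SD, n = 2). Leaving out a library moved this difference between 0.776 and 1.13 points. No test was made of this sum. The small subunit held 3.21% to 3.56% in the clones, against 2.86% and 2.95% in the parental libraries, and the large subunit 4.13% to 4.48%, against 3.72% and 3.81%. The ratio of small to large subunit reads was 0.778 to 0.798 in the clones and 0.769 and 0.774 in the parental libraries. Rows with a ribosomal pseudogene name, 163 in number, held 131072 to 145629 in the clones, against 120904 and 131334 in the parental libraries, which is 11.8% to 12.8% of the members' sum in every library. Of the 106 such rows tested, 2 were higher and 0 lower, against 7.51% and 8.49% of all genes. An unadjusted p under 0.05 in either direction (limma) was found in 12, against 31.1% of all genes. The log2 fold change was positive in 88 of these rows and negative in 18, against 51.1% positive over all genes. Their median was 0.16, against 0.22 over the members.

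**Figure D4:**
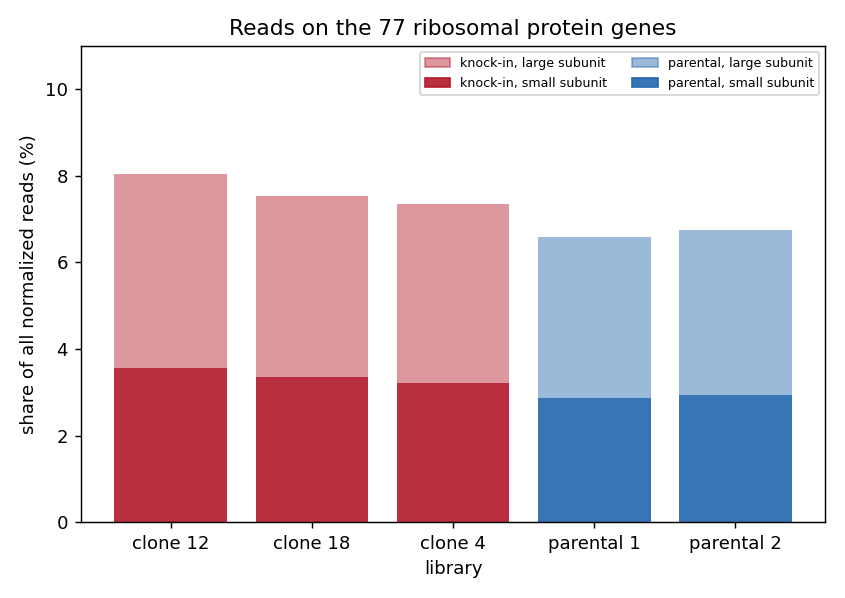
Share of all normalized reads (per cent, from 0) on the 77 members in each library, knock-in clones in red left of parental libraries in blue, with the small subunit in the darker lower part and the large subunit in the lighter upper part. The clones reach 7.34% to 8.04% and the parental libraries 6.58% and 6.75%.

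Some ribosomal genes lay outside the name pattern. Rpl36al, a retained copy of Rpl36a, was at 4511, 4633 and 4369.7 in the clones, against 3637 and 3507 in the parental libraries (log2 fold change 0.33, SE 0.0805, adjusted p = 0.0293, limma). Its groups did not overlap, and it lost its call in 4 of the 5 fits without 1 library (adjusted p up to 0.142, limma). Fau, which encodes the small subunit protein S30, was at 1684, 1779 and 1686 in the clones, against 1457 and 920.0 in the parental libraries (log2 fold change 0.57, SE 0.185, adjusted p = 0.0822, limma), and passed by DESeq2 (adjusted p = 0.0430) and against parental 2 alone (adjusted p = 0.00562, limma). Gnb2l1, or RACK1, a scaffold on the small subunit, had a log2 fold change of 0.09 (95% interval -0.05 to 0.24) (adjusted p = 0.345, limma). The paralog Rpl22l1 was at 375, 312 and 357 in the clones, against 396 and 204 in the parental libraries. The paralog Rpl7l1 was at 698, 678 and 778 in the clones, against 834 and 357 in the parental libraries. Both were low in parental 2, and neither passed (adjusted p = 0.513 and 0.479, limma) except against parental 2 alone (adjusted p = 0.0413 and 0.00879, limma).

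Other genes of translation and ribosome assembly were read beside the members. Of the 18 translation factors and related genes whose mRNAs carry a TOP tract, 1 was higher and 2 lower, against 7.51% and 8.49% of all genes. The median log2 fold change of the 18 was 0.13. Eif3k, a subunit of initiation factor eIF3, was at 1368, 1473 and 1413 in the clones, against 1162 and 904 in the parental libraries (log2 fold change 0.47, SE 0.130, adjusted p = 0.0486, limma), and it lost its call without any 1 clone and without parental 2, with a log2 fold change of 0.29 in that last fit. Nap1l1, a histone chaperone, and Hnrnpa1, a splicing regulator, were lower, with log2 fold changes of -0.40 and -0.32 (adjusted p = 0.0227 and 0.0258, limma), and lost their calls in 3 and 4 of the 5 fits without 1 library. Of 47 assembly factors tested, 0 were higher and 3 lower, against 7.51% and 8.49% of all genes. An unadjusted p under 0.05 in either direction (limma) was found in 8, against 31.1% of all genes, and the median log2 fold change of the list was 0.11. Parental 2 was under 0.8 times parental 1 in 16 of the 47, against 16% of all genes. Every clone was above parental 1 in 14 of the 47, against 34.1% of all genes, and above parental 2 in 26, against 35.4%. Ncl, nucleolin, was at 3198, 3414 and 3906 in the clones, against 3763 and 935 in the parental libraries and did not pass (adjusted p = 0.382, limma), an example chosen after the values were seen. Nmd3, the export adaptor of the large subunit, was at 639, 528 and 659 in the clones, against 1016 and 1038 in the parental libraries (log2 fold change -0.76, SE 0.137, adjusted p = 0.0108, limma). Wdr3, of the small subunit processome, was at 947, 964 and 927 in the clones, against 1507 and 1383 in the parental libraries (log2 fold change -0.61, SE 0.104, adjusted p = 0.00883, limma), and Nop56, of the box C/D snoRNP, at 11503, 12369 and 11421 in the clones, against 14349.9 and 15499 in the parental libraries (log2 fold change -0.34, SE 0.0764, adjusted p = 0.0221, limma). In these 3 genes every clone was below both parental libraries. Without parental 2, Nmd3 and Nop56 did not pass (adjusted p = 0.0506 and 0.142, limma), and without clone 12 Nop56 did not (adjusted p = 0.0927, limma).

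None of the 13 RNA polymerase I genes, the 7 chaperones of ribosomal proteins and the 4 snoRNA host genes tested was called (limma), with median log2 fold changes of 0.01, 0.05 and -0.00, while 2, 2 and 0 of them had an unadjusted p under 0.05, against 31.1% of all genes. Of the 76 mitochondrial ribosomal protein genes, 1 was higher, Mrpl43, and 4 were lower, Mrpl24, Mrpl47, Mrpl23 and Mrps21, against 7.51% and 8.49% of all genes. The median log2 fold change of the 76 was 0.02. Whether these lists differ from the cytosolic members was not tested. Among 14 genes of mTOR signalling and MYC control, 1 was called, or 7.14%, while 7.51% of all genes were called higher. It was Mycn, at 731, 491 and 687 in the clones, against 294 and 298 in the parental libraries (log2 fold change 1.08, SE 0.192, adjusted p = 0.0101, limma).

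**Figure D5:**
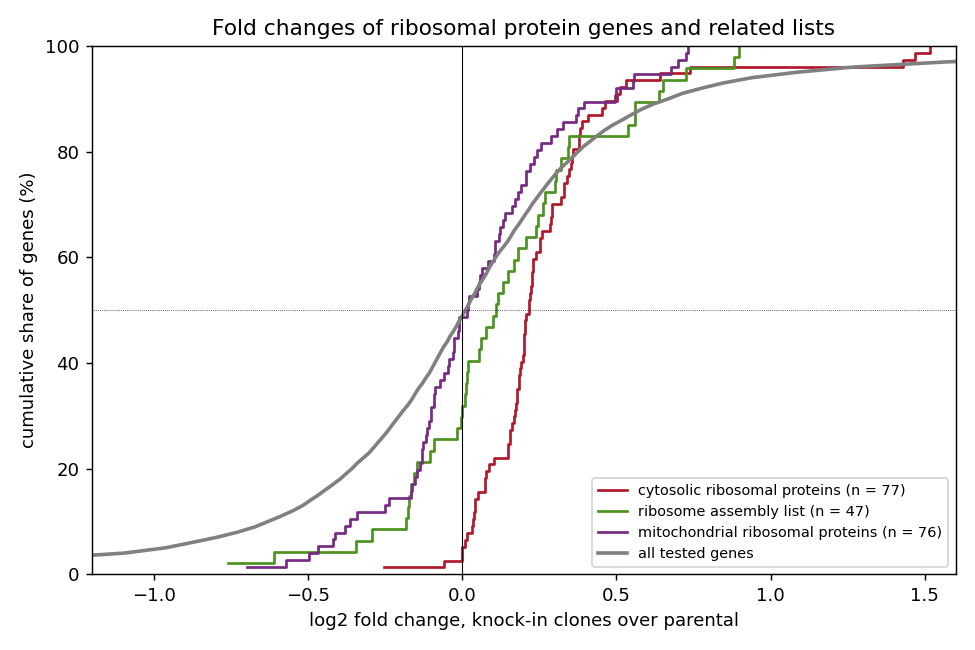
Cumulative share of genes (vertical, per cent) by log2 fold change of knock-in clones over parental libraries (horizontal) for the 77 members, 47 assembly factors, 76 mitochondrial ribosomal protein genes and all genes tested. The curve of the members crosses 50% at 0.22, against 0.11 for the assembly factors, 0.02 for the mitochondrial genes and 0.01 for all genes, and values beyond -1.2 and 1.6 are not drawn.

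Of 14 p53 genes and targets, 8 were higher, or 57.1%, against 7.51% of all genes, 0 were lower and 6 were not called. The median log2 fold change was 0.72, and 4 of the 14 had a negative one. Bax, a promoter of apoptosis, was at 1272, 1303 and 1266 in the clones, against 651 and 517 in the parental libraries (log2 fold change 1.14, SE 0.130, adjusted p = 0.00170, limma). Zmat3, an RNA-binding target, was at 110.96 to 270.8 in the clones, against 6.21 and 10.99 in the parental libraries (log2 fold change 4.42, SE 0.445, adjusted p = 0.00146, limma). Bbc3, or Puma, was at 298, 254 and 361 in the clones, against 126 and 119 in the parental libraries (log2 fold change 1.29, SE 0.191, adjusted p = 0.00499, limma). Mdm2, the partner of Rpl5 and Rpl11, was at 1651, 1507 and 2203 in the clones, against 1501 and 1662 in the parental libraries and did not pass (adjusted p = 0.551, limma), nor did Trp53 itself (adjusted p = 0.393, limma). Of 9 proliferation genes, 5 were lower and 0 higher, against 8.49% and 7.51% of all genes. The median log2 fold change was -0.56, and 2 of the 9, Mcm2 and Mcm3, had a positive one. In these 2 genes every clone was below parental 1 and above parental 2. Mcm2 was at 1659 and 634 in parental 1 and 2, and Mcm3 at 1813 and 585. Ccna2, cyclin A2, was at 1875, 1799 and 1422 in the clones, against 4125 and 3723 in the parental libraries (log2 fold change -1.22, SE 0.136, adjusted p = 0.00156, limma). Cdk1, its kinase partner, was at 2078, 2446 and 2015 in the clones, against 3505 and 3448 in the parental libraries (log2 fold change -0.68, SE 0.109, adjusted p = 0.00687, limma), and Ccnb1, cyclin B1, at 2895, 3077 and 2228 in the clones, against 4458 and 4910.0 in the parental libraries (log2 fold change -0.79, SE 0.145, adjusted p = 0.0124, limma). Without parental 2, Ccnb1 did not pass (adjusted p = 0.0696, limma). The part of these cell cycle genes in the values of the members was not tested.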

How the data were processed

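RNA was sequenced from 3 knock-in clones and 2 parental libraries, using the NEBNext Ultra II kit per the labels' protocols. Tools named in the submitters' processing notes are STAR 2.6.1, RSEM and DESeq2, and builds named there are hg19 and mm9, all with no role stated. For strand use and annotation, nothing is given in the sources used here. The authors deposited a normalized signal per Ensembl gene, read counts divided by a size factor of the library, as the values show: 100% of values above 0 were whole multiples of the library's smallest value, within 0.01. Groups come from titles. Clones are named by title, although the file headers give them other numbers within the knock-in group. No label says that the parental libraries are separate cultures, so p-values may measure technical spread. No replicate pair matched within sampling noise (chi-square per degree of freedom 6.34 to 26.9).

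limma 3.58.1 (R 4.3.3, trend, robust) on log2(value + 1) was fitted to all 13132 genes with a mean of at least 10, with Benjamini-Hochberg adjustment over them and a threshold of 0.05. Intervals are limma's at 95%, unadjusted. Alternatives were pseudocounts of 0.5 and 10, a minimum of 50 or none, library totals, TMM, each library left out, and edgeR 4.0.16 and DESeq2 1.42.0 on recovered reads. The fit was tested on simulated data with 200 changed genes. Members and lists were chosen with earlier results of these data known. Named genes were called members, members with a listed role, and up to 3 called genes of each other list, besides those said to be chosen later. Spi1, Noc2l, Taf1a, Snhg6, Snhg8 and Zfas1 were not matched by symbol, and 823 rows have none. Some genes of the lists are not reported here. The intervals cover the spread between libraries.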

Additional observations from a re-analysis of the deposited data

How the results depend on the processing

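The count of 12 higher members was 7 with no filter on low values, where 20236 genes were tested, and 21 with DESeq2. Of all genes, 3.3% and 9.88% were called higher in these 2 settings, and the cause was not tested. Leaving out 1 clone gave 1 to 18 higher members, against 3.57% to 7.52% of all genes. Leaving out 1 library gave a median log2 fold change of 0.19 to 0.24 and a difference in summed share of 0.776 to 1.13 percentage points. With the other settings 12 to 16 members were higher, against 7.45% to 7.84% of all genes. Of the 13 alternatives, those with 2 parental libraries called 0 members lower. No scaling moved the median of all genes by more than 0.0118. Of 83 named genes, 76 kept their sign in every alternative. Rps4x and Rpl15, at -0.00 in the fit reported, turned positive with library totals (0.0112 and 0.0111), TMM (0.00259 and 0.00247), edgeR (0.00400 and 0.00173) and DESeq2 (0.00331 and 0.000893). Leaving out 1 library gave log2 fold changes of -0.0348 to 0.0451 for Rps4x, -0.0530 to 0.0517 for Rpl15, -0.0659 to 0.129 for Rps2 and -0.00179 to 0.272 for Mdm2. It gave -0.126 to 0.464 for Rps27, -0.190 to 0.761 for Rpl22l1 and -0.219 to 1.00 for Rpl7l1, negative without parental 2. No paired analysis was possible because the clones and the parental libraries share no replicate numbers, and the human groups that do entered no test. Depth at the members was 483 reads (Rpl36, clone 4) or more in every library.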
